A study of Mus musculus with 4 samples.

Results

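The MHC class II genes were followed in leaflets of the aortic and pulmonary valves, the semilunar valves, from newborn mice that lack Cxcr7 (current symbol Ackr3), an atypical receptor for the chemokine CXCL12. The set held 9 of the 18194 genes that have a probe set of their own on the array: H2-Aa, H2-Ab1, H2-Eb1, H2-Ea, Cd74, H2-DMa, H2-DMb2, H2-Oa and Ciita. On this Affymetrix mouse array they had 21 probe sets annotated to 1 of these genes alone, of 45037 probe sets without controls. The set was picked on readings of these same arrays, because H2-Eb1 and H2-Aa read higher in both Cxcr7-/- pools than in the controls. Differences between the genotypes in these genes are therefore given as values, with no test.

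The 4 arrays were 2 Cxcr7-/- pools and 2 Control pools of wildtype littermates. Each pool joined the leaflets of 3 neonates. Each Cxcr7-/- neonate gave 4 to 6 leaflets, since its valves had 2 or 3 each, and each wildtype neonate gave 6. The sources used here give neither the null allele nor the strain or sex of the animals. Class II chains differ in sequence between H2 haplotypes, so how well the probes match the alleles of these mice is unknown, and with it what the signals of H2-Aa, H2-Ab1 and H2-Eb1 mean as levels. Whether all pools shared a haplotype is unknown too. The part of probe match in the differences between the genotypes was not tested. Whole leaflets were taken, so the RNA is that of a mixture of cells.

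MHC class II molecules are pairs of an alpha and a beta chain that carry peptides from the endosome to the surface of antigen-presenting cells, where CD4+ T cells read them. The invariant chain Cd74 guides the newly made pair and blocks its groove, DM exchanges the last invariant chain fragment for peptide, and DO restrains DM. The transactivator Ciita docks on factors bound at the X and Y boxes of class II promoters and switches the genes on together. In the adult heart, cells with class II on their surface are mostly macrophages and dendritic cells. Which cells of these newborn leaflets carried class II was not tested.

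The arrays matched their genotype labels at Cxcr7. Its probe set read 28.3 and 328 in Cxcr7-/- leaflets, against 4936 and 5698 in Control leaflets. The Cxcr7-/- pools thus differed widely there. Whole arrays did not group cleanly by genotype. Cxcr7-/- replicate 2 and Control replicate 1 correlated at 0.953, close to the 0.956 between the Cxcr7-/- pools. The Control pools correlated with each other at 0.931, and the other pairs across genotypes at 0.922 to 0.928. Median signals were 84.5 and 92.5 for Cxcr7-/-, against 109.9 and 89.9 for Control. Gapdh control probes at the 3' end outshone those at the 5' end, a sign of transcript length after amplification, by 12.6 and 8.20 times in Cxcr7-/- and by 12.7 and 24.2 times in Control. For Actb they did so by 15.5 and 11.7 times in Cxcr7-/- and by 20.2 and 19.1 times in Control. Both ratios were lower in each Cxcr7-/- pool than in either Control pool, and Control replicate 2 stood apart for Gapdh but not for Actb. The part of this difference in the readings below was not tested. All 10 valve interstitial markers examined, among them Postn, Vim, Lum and Bgn, were above the brightness filter. All 10 cardiomyocyte markers were above it too.

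The promoters of the class II chains are shown first, since the genes are known to share control elements there. RefSeq windows of the GRCm38.p6 build were found for 5 of the 9 genes, H2-Aa, H2-Eb1, H2-DMa, H2-DMb2 and H2-Oa. The stretches below run 5′ to 3′ on the strand of the gene. H2-Aa lies on the minus strand at chr17:34287824-34288073 and H2-Eb1 on the plus strand at chr17:34305617-34305866, and for each the 250 bases before the annotated start are given. For H2-DMb2 (chr17:34145116-34145175, plus strand) and H2-Oa (chr17:34092293-34092352, plus strand) 60 bases around the same elements are given. Capitals mark AAC, the end of the X box core GCAAC where a gene has that core, and ATTGG, the core of the Y box that the factor NF-Y binds.
H2-Eb1: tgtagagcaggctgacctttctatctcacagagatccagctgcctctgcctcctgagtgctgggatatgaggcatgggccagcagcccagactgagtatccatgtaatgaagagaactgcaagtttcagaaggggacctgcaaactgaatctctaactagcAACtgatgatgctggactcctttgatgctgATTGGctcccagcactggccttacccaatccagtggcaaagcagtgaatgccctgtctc
H2-Aa: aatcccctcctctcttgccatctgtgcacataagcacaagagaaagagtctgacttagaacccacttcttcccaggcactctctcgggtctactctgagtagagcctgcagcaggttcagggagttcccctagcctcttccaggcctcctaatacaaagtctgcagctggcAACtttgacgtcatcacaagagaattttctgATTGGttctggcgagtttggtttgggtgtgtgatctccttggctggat
H2-DMb2: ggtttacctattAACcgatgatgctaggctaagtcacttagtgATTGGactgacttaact
H2-Oa: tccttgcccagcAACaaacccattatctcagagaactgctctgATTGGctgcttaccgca

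The letters AAC and ATTGG stood 27 bases apart in H2-Eb1 and 28 bases apart in H2-Aa, H2-DMb2 and H2-Oa, all on the gene's strand. The Y box core began 59 bases before the start in H2-Eb1, 48 in H2-Aa, 90 in H2-DMb2 and 43 in H2-Oa. Of 32851 promoter windows of 300 bases in the table, 0.606% held that spaced pair on the gene's strand and 1.30% on either strand. The spacing was read from these 4 genes, so their matches carry no weight of their own. ATTGG alone was in 37.4% of windows and GCAAC alone in 35.2%, counting both strands. The longer Y box letters CTGATTGG, which contain ATTGG, were in H2-Eb1, H2-Aa and H2-Oa and in 4.10% of windows. H2-Aa also held TGACGTCA, the letters that CREB factors bind, 74 bases before its start, as did 1.79% of windows. Neither of the H2-DMa windows, which sit at different annotated starts, held the spaced pair.

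**Figure D1:**
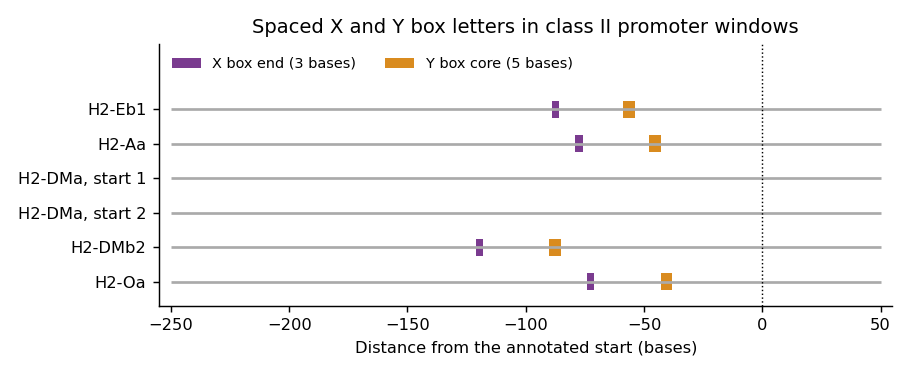
Position of the letters AAC (purple) and ATTGG (orange, Y box core) where they are spaced by 27 or 28 bases, in RefSeq promoter windows from 250 bases before to 50 bases after the annotated start. AAC, labelled X box end, is the end of the X box core GCAAC only, and H2-DMb2 lacks that core. The pair is present in H2-Eb1, H2-Aa, H2-DMb2 and H2-Oa and lies within the 250 bases before the start in each, while neither H2-DMa window holds it.

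The deposited values are MAS5 signals on a linear scale, and differences below are Cxcr7-/- minus Control on log2(signal + 22), followed by the standard error of a limma fit across the array where the probe set was bright enough. A probe set was called dim when its mean log2 value over the 4 arrays was not above the median of all probe sets, which corresponds to a signal of 87.4. Of the 21 class II probe sets, 7 were above that filter and 14 were dim. The filter uses the mean of all 4 arrays, so a gene can pass through 1 genotype alone. The nearest on the bright side was the dimmer of the H2-Ab1 probe sets that passed, at a geometric mean signal of 107, and the nearest on the dim side was the s_at probe set of H2-Aa, at 68.4.

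Among the chains that form the surface molecules, H2-Eb1, the beta chain of I-E, has 1 probe set on the array. It read 807 and 686 in Cxcr7-/- and 209 and 176 in Control. The 2 genotypes were far apart and the pools of each close together: the gap between the nearest pools was 1.62 on the log2 scale, while pools of 1 genotype differed by 0.23 in Cxcr7-/- and 0.22 in Control. The mean was 746 ± 86.1 in Cxcr7-/- and 192 ± 23.0 in Control (SD, n = 2 pools each), a ratio of 3.88 and a log2 difference of 1.84 ± 0.31.

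H2-Aa, the alpha chain of I-A, has 4 probe sets, and in each of them both Cxcr7-/- pools were above both Control pools. The brightest read 2341 and 1937 in Cxcr7-/- and 863 and 909 in Control, a log2 difference of 1.24 ± 0.26. The next read 1181 and 1099 in Cxcr7-/- against 293 and 404 in Control, 1.66 ± 0.30. The nearest pools of the 2 genotypes were 1.07 and 1.39 apart on the log2 scale in these probe sets, more than any pools of 1 genotype were. The other probe sets were dim: that of the s_at kind read 109 and 130 in Cxcr7-/- and 34.5 and 37.4 in Control, and the last read 96.8 and 168 in Cxcr7-/- and 5.14 and 30.8 in Control. On this array the suffixes x_at and s_at mark probe sets whose probes can also bind other transcripts, and all those of H2-Aa are of these kinds, so signal from related chains cannot be told apart from its own.

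H2-Ab1, the beta chain that pairs with H2-Aa, gave a mixed picture over its 3 probe sets. The brightest, an s_at probe set, read 1106 and 613 in Cxcr7-/- against 404 and 484 in Control, a log2 difference of 0.87 ± 0.35. The Cxcr7-/- pools differed from each other by 0.83 there, more than the 0.33 that separated the nearest pools of the 2 genotypes, and without Cxcr7-/- replicate 1 the difference was 0.45. The a_at probe set, of the kind that detects transcripts of 1 gene, read 241 and 180 in Cxcr7-/- and 41.5 and 61.1 in Control, 1.67 ± 0.41, with the genotypes clearly separate. The dim x_at probe set read 169 and 46.5 in Cxcr7-/- and 13.8 and 57.6 in Control, and the genotypes overlapped.

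H2-Ea, the alpha chain that I-E needs, was dim in each of its 3 probe sets, with signals from 3.90 to 77.9 over all pools. The brightest was lower in both Cxcr7-/- pools, at 20.7 and 28.4 against 39.4 and 77.9 in Control. The s_at probe set read 4.53 and 7.30 in Cxcr7-/- and 3.90 and 4.43 in Control, and the third probe set overlapped between genotypes. The RefSeq table, made from a C57BL/6J genome, lists H2-Ea as a transcribed pseudogene, and strains of that haplotype make no I-E on the cell surface. H2-Eb1 thus read higher in Cxcr7-/- pools on arrays where its partner chain gave no signal above the filter.

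Cd74, the invariant chain, did not separate the genotypes. Its single probe set read 116 and 256 in Cxcr7-/- against 114 and 166 in Control, a log2 difference of 0.29 ± 0.45. The lower Cxcr7-/- pool, replicate 1, was the one with the higher H2-Eb1 and H2-Ab1 signal. Without Cxcr7-/- replicate 2 the difference was -0.21, and without Cxcr7-/- replicate 1 it was 0.80.

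**Figure D2:**
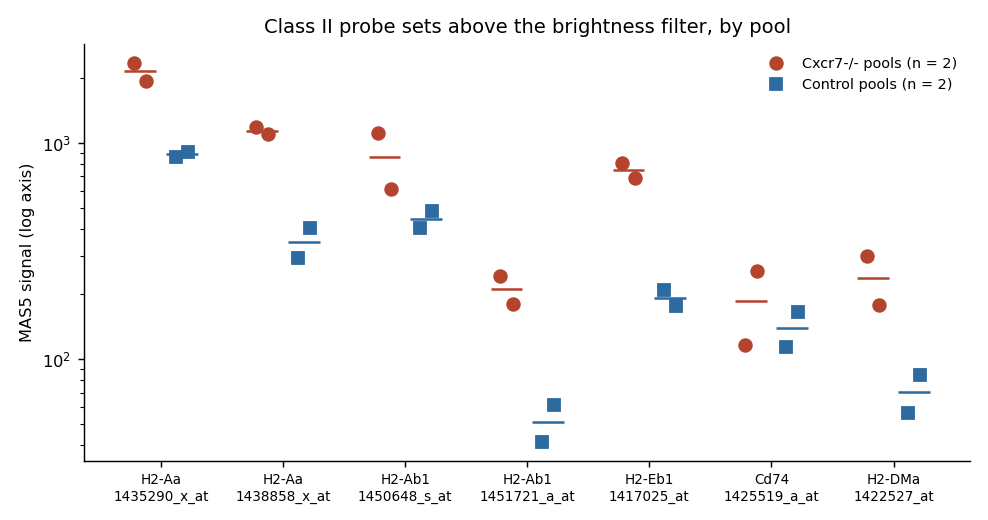
MAS5 signal on a log axis of the 7 class II probe sets above the brightness filter, with the 2 Cxcr7-/- pools (red circles) left of the 2 Control pools (blue squares) and the mean of each genotype as a line. Both Cxcr7-/- pools lie above both Control pools in 6 of them, H2-Eb1 being the most widely separated, and Cd74 overlaps. The probe set of H2-DMa and the a_at probe set of H2-Ab1 passed the filter only through their Cxcr7-/- signals.

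Of the genes that load peptide, H2-DMa, the DM alpha chain, read 299 and 177 in Cxcr7-/- and 56.5 and 84.8 in Control, a log2 difference of 1.47 ± 0.42. Its second, dim probe set had the same order, with 68.5 and 55.2 in Cxcr7-/- and 5.64 and 1.55 in Control. The pools of the 2 genotypes did not overlap in either. H2-DMb2, a DM beta chain, was dim throughout: the brightest probe set read 100.1 and 50.2 in Cxcr7-/- and 61.0 and 29.4 in Control, another overlapped too, and the x_at probe set was lower in both Cxcr7-/- pools, at 18.5 and 14.5 against 40.4 and 37.0. H2-Oa, the alpha chain of DO, was dim and spread widely, with 64.6 and 7.58 in Cxcr7-/- and 84.8 and 37.7 in Control. DO is known mostly from B cells and dendritic cells.

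Ciita, the switch of the whole set, was dim in each of its 3 probe sets and none separated the genotypes. The brightest read 38.4 and 53.2 in Cxcr7-/- against 91.2 and 26.4 in Control. The second read 6.71 and 19.7 in Cxcr7-/- and 39.6 and 6.82 in Control, and the a_at probe set read 28.8 and 12.2 in Cxcr7-/- and 3.15 and 15.4 in Control. Within Control the pools differed by 1.23 on the log2 scale in the first of these and by 1.09 in the second, which is more than the genotypes did. A difference in Ciita was not detectable at these signals.

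Over all 21 probe sets, both Cxcr7-/- pools were above both Control pools in 10 and below both in 2, and 9 overlapped. Over the whole array the same order was seen in 17.1% of probe sets and the opposite order in 21.0%. Among probe sets above the filter, 6 of the 7 class II ones were higher in both Cxcr7-/- pools, beside 20.1% of all such probe sets. Of those 6, that of H2-DMa and the a_at probe set of H2-Ab1 had both Control signals under the 87.4 of the filter. They passed it only through their Cxcr7-/- signals. These counts rest on the contrast that picked the genes and describe it only. The median log2 difference was 0.52 over the 21 probe sets and -0.04 over all probe sets of the array. When Control replicate 2 was left out, 14 of the 21 had both Cxcr7-/- pools above Control replicate 1, beside 30.1% of all probe sets, and 5 had both below it.

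**Figure D3:**
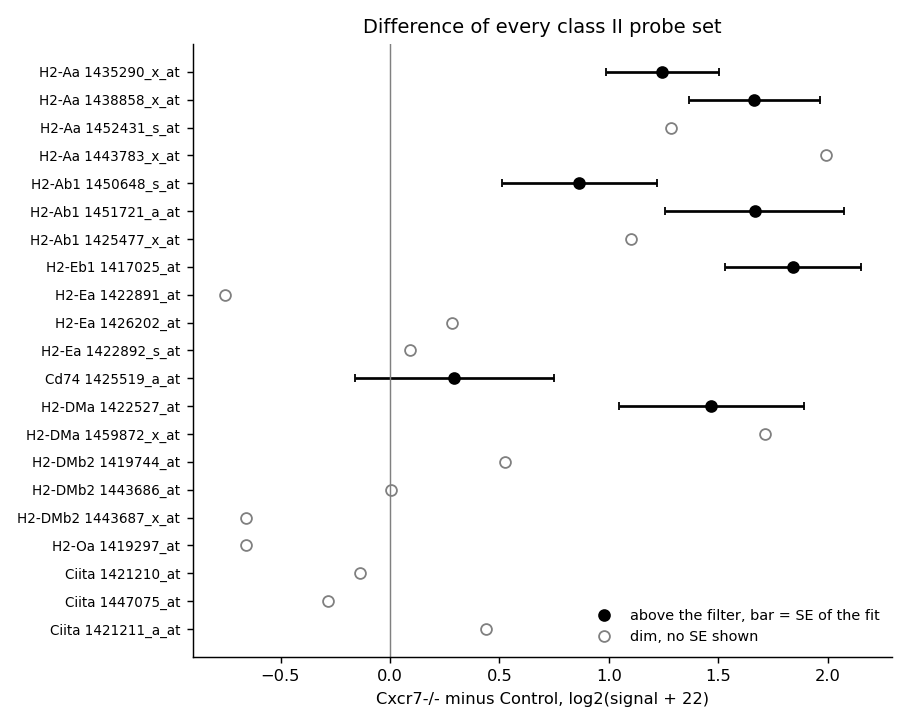
Log2 difference of each of the 21 class II probe sets, Cxcr7-/- minus Control on log2(signal + 22). Filled points are above the brightness filter, with the standard error of the fit, and open points are dim. The points of H2-Aa, H2-Ab1, H2-Eb1 and H2-DMa all lie right of 0, from 0.87 to 1.99, while those of H2-Ea, H2-DMb2, H2-Oa and Ciita lie between -0.76 and 0.52.

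All members except Cd74 and Ciita lie in 1 stretch of chromosome 17, where they are interspersed with other genes. In RefSeq order the measured genes were H2-Oa, Brd2, H2-DMa, H2-DMb2, Psmb9, Tap1, Psmb8, Tap2, H2-Ob, H2-Ab1, H2-Aa, H2-Eb1, H2-Eb2 and H2-Ea. Of the 7 that are not members, 4 were above the filter, with a median log2 difference of 0.41. Tap1, a subunit of the transporter that supplies class I molecules with peptide, read 261 and 247 in Cxcr7-/- and 125 and 189 in Control. Psmb8, an immunoproteasome subunit, read 252 and 165 in Cxcr7-/- against 135 and 117 in Control. Brd2, a chromatin reader, was lower in both Cxcr7-/- pools, at 1298 and 1401 against 1531 and 1868.

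**Figure D4:**
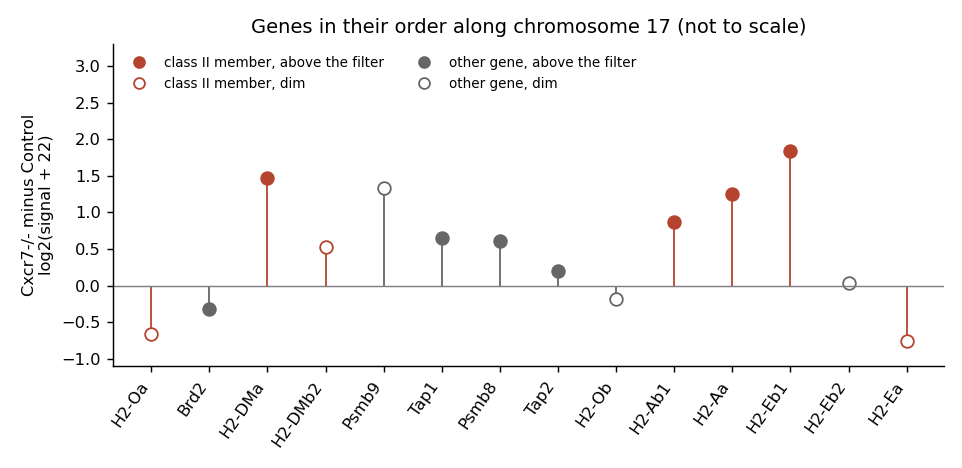
Log2 difference (Cxcr7-/- minus Control) of the brightest probe set of each measured gene, in the genes' order along chromosome 17 and not to scale. Class II members are red and other genes grey, and open points are dim. H2-Ab1, H2-Aa and H2-Eb1 stand side by side at 0.87, 1.24 and 1.84, between H2-Ob at -0.18 and H2-Eb2 at 0.04. H2-Ob and H2-Eb2 were dim, at 1.80 to 9.28 and 6.45 to 9.23 over all pools. A difference in them was not detectable at these signals.

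The other genes of the pathway were read from the limma fit over 22518 probe sets, two-sided with Benjamini-Hochberg adjustment. That fit called no probe set at an adjusted p under 0.05 (0% of those tested, smallest adjusted p = 0.400). At an unadjusted p under 0.05 it had 2279, with 3.94% of probe sets higher in Cxcr7-/- and 6.18% lower. The values below are therefore readings and not calls.

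Endosomal proteins that prepare the peptide and cut the invariant chain leaned upwards. Of 10 listed genes, all above the filter, 8 had positive differences, with a median of 0.31, and 1 was higher at an unadjusted p under 0.05. Both Cxcr7-/- pools were above both Control pools in 4, Ctss, Ifi30, Ctsl and Lamp2, beside 20.1% of all probe sets above the filter. The pools of the others overlapped (Ctsb, Ctsd, Ctsh, Ctsz, Lgmn and Lamp1). That gene was Ctss, cathepsin S, which cuts the invariant chain in antigen-presenting cells, with 7340 and 6343 in Cxcr7-/- and 4884 and 2834 in Control (0.87 ± 0.30). Ifi30, the thiol reductase that unfolds antigens, read 1054 and 973 in Cxcr7-/- and 666 and 712 in Control (0.54 ± 0.27). Ctsl, the related cathepsin L, was at 0.30 ± 0.21 and the lysosomal membrane protein Lamp2 at 0.30 ± 0.20. Marchf8, which marks class II molecules for breakdown, was the 1 gene above the filter of 4 measured in the list of further class II and turnover genes, at 0.19 ± 0.25, and H2-Ob, H2-Eb2 and Marchf1 were dim.

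The factors that bind class II promoters showed no such lean. Of 10 genes, all above the filter, 4 had positive and 6 negative differences, with a median of -0.02, and none had an unadjusted p under 0.05. Rfxap and Rfxank, subunits of the RFX complex of the X box, were at -0.41 ± 0.32 and -0.35 ± 0.36. The coactivators Crebbp and Ep300 were at -0.14 ± 0.23 and 0.26 ± 0.31.

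Interferon gamma is the classical inducer of Ciita outside professional antigen-presenting cells. Of 9 measured genes of that route 6 were above the filter, 2 positive and 4 negative, with a median of -0.15 and none at an unadjusted p under 0.05. The kinase Jak1 was at 0.40 ± 0.25 and its partner Jak2 at -0.23 ± 0.27. Irf1, an interferon target that acts on a Ciita promoter, read 543 and 337 in Cxcr7-/- and 495 and 527 in Control (-0.24 ± 0.33). Irf8, a factor of macrophages and dendritic cells, read 441 and 466 in Cxcr7-/- and 278 and 359 in Control (0.49 ± 0.31). The Ifng probe set was dim and lower in both Cxcr7-/- pools, at 3.97 and 2.01 against 39.5 and 33.4 in Control.

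Costimulatory and inhibitory ligands, which antigen-presenting cells show beside class II, went in both directions. Of 8 genes 5 were above the filter, 2 positive and 3 negative, with a median of -0.34, and 1 was lower at an unadjusted p under 0.05. That was Icosl, the ligand of the T cell receptor ICOS, with 134 and 83.7 in Cxcr7-/- against 243 and 248 in Control (-1.06 ± 0.38). Cd83, a protein of activated antigen-presenting cells that protects class II from breakdown, was at 0.49 ± 0.34 and Cd86 at 0.65 ± 0.47. Cd40 was at -0.34 ± 0.30.

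MHC class I presentation, the sister pathway that nearly all cells use, leaned upwards. All 11 genes above the filter of 13 measured had positive differences, with a median of 0.61, but the pools of 4 overlapped (Tap2, Tapbp, Psmb10 and Calr, at 0.05 to 0.20). In the other 7 both Cxcr7-/- pools were above both Control pools, beside 20.1% of all probe sets above the filter. The dim Nlrc5, a transactivator of class I genes, was lower in both Cxcr7-/- pools, at 37.3 and 11.4 against 38.3 and 49.5 in Control. Of the 11, 2 were higher at an unadjusted p under 0.05, H2-D1 and Pdia3. The class I heavy chain H2-D1 read 5746 and 3456 in Cxcr7-/- and 2542 and 2322 in Control (0.87 ± 0.29), and H2-K1 read 3755 and 2368 in Cxcr7-/- and 1747 and 2017 in Control (0.66 ± 0.29). The light chain B2m was at 0.63 ± 0.28. Pdia3, a chaperone of class I assembly that also serves protein folding at large, was at 1.36 ± 0.38. Both heavy chain probe sets are of the x_at kind, and Tap1, Tap2, Psmb8 and Psmb9 are in this list as well as in the class II region.

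Markers of the cells that could carry class II were read beside these values. In whole leaflets, more cells of a type and more RNA per cell cannot be told apart. Macrophage markers read higher in Cxcr7-/-: of 22 genes 19 were above the filter, 18 of them positive and 1 negative, with a median of 0.80 and a range from -0.44 to 1.75. Both Cxcr7-/- pools were above both Control pools in 15 of the 22 and below both in 2, beside the 17.1% and 21.0% of the array. Their summed signal was 29798 and 27504 in Cxcr7-/- and 21029 and 17534 in Control, a ratio of 1.49. None was at 0. Mrc1, the mannose receptor, was at 1.75 ± 0.28, Cd68 at 1.55 ± 0.38, F13a1 at 1.43 ± 0.32 and Ms4a7 at 1.15 ± 0.34. Among class II probe sets above the filter, H2-Eb1 was at 1.84 ± 0.31, H2-Aa at 1.24 and 1.66, H2-Ab1 at 0.87 and 1.67 and H2-DMa at 1.47. These were above the marker median of 0.80, while Cd74, at 0.29, was below it. The class II genes were picked on this contrast. The part of macrophages in the class II readings was not tested.

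Markers of other immune cells were mostly under the brightness filter. Of 8 measured dendritic cell genes 7 were dim, among them Itgax, Flt3, Xcr1 and Ccr7, and the summed signal of the 8 was 569 and 365 in Cxcr7-/- against 424 and 422 in Control. Both Cxcr7-/- pools were below both Control pools in 2 of the 8, Itgax and Ccr7, and above both in 1, Zbtb46. The shares of the array were 21.0% below and 17.1% above. Zbtb46, which endothelium also expresses, was above the filter at 0.37 ± 0.34. All 9 measured B cell genes were dim, with no signal above 89.2 and sums of 350.0 and 341 in Cxcr7-/- and 390 and 264 in Control. Both Cxcr7-/- pools were above both Control pools in 2 of these 9, Fcer2a and Ms4a1, and below both in 2, Pax5 and Vpreb1. Of 9 T and NK cell genes 8 were dim, with sums of 258 and 421 in Cxcr7-/- and 205 and 202 in Control, and Cd8a was at 0.52 ± 0.43. Both Cxcr7-/- pools were above both Control pools in 3 of these 9 and below both in 2. Of 4 monocyte genes 2 were above the filter, Ccr2 at 0.29 ± 0.45 and Plac8 at -0.65 ± 0.42.

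Markers of the other cells of the leaflet were read in the same way. Cardiomyocyte markers summed to 68362 and 105122 in Cxcr7-/- and 123298 and 180159 in Control, and all 10 had negative differences, among them Myh6 at -1.54 ± 0.34, Tnnt2 at -0.74 ± 0.26, Tnni3 at -1.55 ± 0.38 and Mb at -1.67 ± 0.44. Both Cxcr7-/- pools were below both Control pools in 8 of them, beside 21.0% of the array, and the pools of Myh7 and Nppa overlapped. Endothelial markers summed to 10145 and 8966 in Cxcr7-/- and 14098 and 14085 in Control, with 7 of 9 negative, led by Cldn5 at -1.73 ± 0.26. Vwf was at -0.83 ± 0.24, Kdr at -0.72 ± 0.29 and Cdh5 at -0.51 ± 0.31. In 5 of the 9 endothelial markers both Cxcr7-/- pools were below both Control pools. The pools of Tek at -0.07, Emcn at -0.10, Pecam1 at 0.06 and Esam at 0.16 overlapped. The median of the valve interstitial markers was 0.12 and 6 of the 10 were positive. Postn, whose pools overlapped, was at 0.30 ± 0.26, Vim at 0.39 ± 0.20, Lum at 0.54 ± 0.26 and Bgn at 0.24 ± 0.19. The negative ones were Col1a1 at -0.28, Twist1 at -0.17, Sox9 at -0.15 and Col3a1 at -0.03, and their pools overlapped. Signals of an array share 1 scale, and the part of these shifts in the class II readings was not tested.

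**Figure D5:**
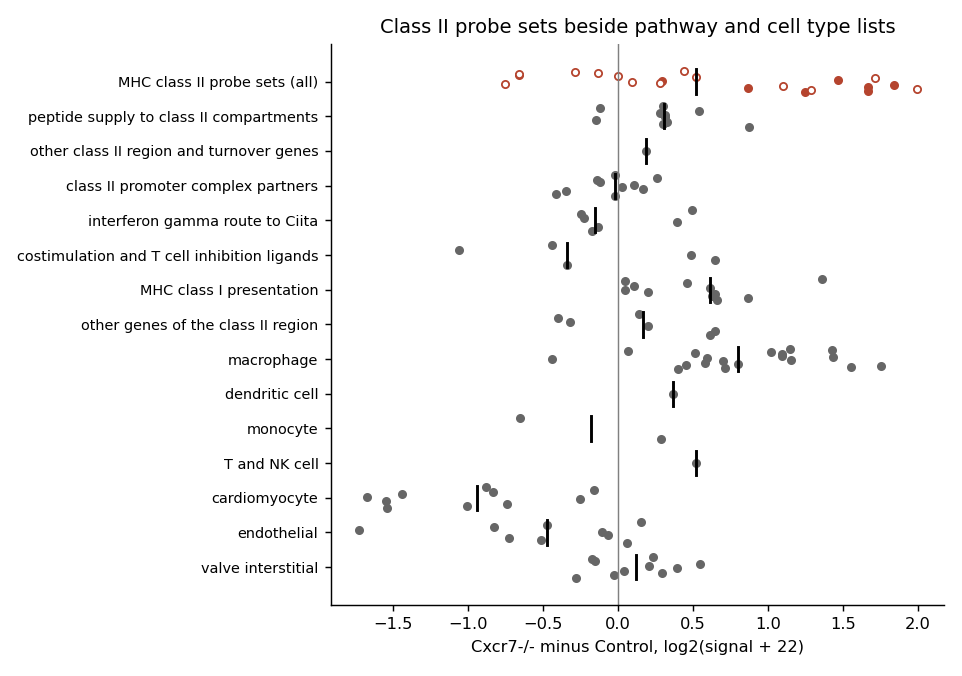
Log2 differences (Cxcr7-/- minus Control) of the 21 class II probe sets (red, dim ones open) beside genes above the brightness filter in the pathway and cell type lists (grey, 1 probe set a gene), with the median of each as a black line. The class II median, 0.52, takes in dim probe sets and so is not on the same footing as the others: the 7 class II probe sets above the filter lie between 0.29 and 1.84 with a median of 1.47, and the 14 dim ones have a median of 0.19. That 1.47 is the value of H2-DMa, which passed the filter only through its Cxcr7-/- signals, as did the a_at probe set of H2-Ab1. The median of macrophage markers is 0.80, of class I genes 0.61, of promoter factors -0.02 and of cardiomyocyte markers -0.94. B cell genes are not drawn because all were dim.

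The genes whose readings over the 4 arrays were most like those of the members were sought among 11255 others, by the root mean square difference of log2 values after each gene's mean was taken off. For H2-Eb1 the 5 nearest were Mrc1 at 0.09, Prph at 0.14, Opcml at 0.15, Ociad2 at 0.19 and Tnfrsf13c at 0.19. Mrc1, the nearest, read 1908 and 1820 in Cxcr7-/- and 618 and 466 in Control. Tnfrsf13c, which was not in the B cell list, read 280 and 316 in Cxcr7-/- and 90.8 and 78.7 in Control. For the brightest probe set of H2-Aa they were Anln at 0.06, Tpx2 at 0.07, Pde4d at 0.08, Wdfy1 at 0.08 and Taf1b at 0.11. The 2 sets of neighbours shared no gene. With 4 arrays, such likeness mostly reflects a similar gap between the genotypes.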

How the data were processed

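The deposited values are intensity values, 1 signal per probe set and array on a linear scale, which the authors made with Affymetrix Expression Console and MAS5, per the submitters' processing notes. The sources used here give no versions or detection calls. Per the labels, 50 ng of RNA went through 2 rounds of amplification, which lowers signal far from the 3' end. All arrays had a trimmed mean of 500.003, as scaling to 1 target gives. Since MAS5 takes background off, relative errors are large in dim probe sets. With arrays, their number limits the precision.

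Signals were taken as log2(signal + 22), where 22 is the rounded 25th percentile. Of 45101 probe sets, 64 controls were left out, and 22518 passed the filter. The annotation table gave 34945 probe sets 1 gene, 932 several and 9160 none, and 34741 of the first were matched to RefSeq symbols. The comparison of genotypes used limma 3.58.1 (R 4.3.3, intensity trend) and was tested on simulated data first. With 2 against 2 pools the smallest p of an exact test is 0.333. The design text calls the pools biological replicates. Named genes were all members, up to 4 genes of each list with the smallest unadjusted p, the 5 nearest genes by likeness, and others chosen after their values were seen. Other genes are given by their brightest single-gene probe set. Some listed genes are not reported here. Members, lists and motifs were chosen with earlier results of these data known. No label ties equal replicate numbers to a litter. Alternatives varied the pseudocount, filter, scaling, trend, block and pools.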

Additional observations from a re-analysis of the deposited data

Results flagged for a closer look

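A probe set annotated to H2-DMb2 and H2-DMb1 together, which was fitted with the rest of the array but is not among the 21 class II probe sets, carried a signal above that of the Control pools. It read 160.3 and 167 in Cxcr7-/- and 71.4 and 33.8 in Control, a log2 difference of 1.36 ± 0.44. It was flagged because both Cxcr7-/- pools were above both Control pools, an order seen in 17.1% of the array. Both Control signals were under the 87.4 of the filter, which it passed only through its Cxcr7-/- signals. The other probe set shared by these DM beta chains, of the s_at kind, overlapped between the genotypes, at 166 and 17.6 in Cxcr7-/- and 5.10 and 36.7 in Control. Which of the genes gave the signal was not tested.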

How the results depend on the processing

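The median log2 difference of the class II probe sets was 0.52. It was 0.90 with no pseudocount and 0.29 with one 4 times larger, and with single pools left out it ranged from 0.45 (without Cxcr7-/- replicate 1) to 0.90 (without Cxcr7-/- replicate 2). Scaling moved it little, to 0.66 after median centring and 0.65 after quantile normalization. Median centring itself moved the median of all bright probe sets from -0.02 to 0.12. Of the 9 class II probe sets whose pools overlapped, 6 changed sign under at least 1 alternative, Cd74 among them. The count of probe sets on the array past the adjusted threshold was 0 with all pools and ranged from 0 to 673 with single pools left out: leaving out Cxcr7-/- replicate 2 gave 8, leaving out Control replicate 1 gave 673, and the others gave 0. It was 0 with the replicate number as a block, where 1730 had an unadjusted p under 0.05 and the class II median was 0.52. The deviations of same-numbered pools correlated at -0.26, and with the pairing crossed, an alternative chosen after seeing the data, 5 probe sets passed. The causes were not tested. Dim probe sets limit what can be said of Ciita, H2-Oa, H2-Ea and H2-DMb2.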
